A study of Mus musculus with 22 samples.

Results

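Messenger RNA of the main cannabinoid receptor of the brain and of 6 enzymes that make or break down its lipid ligands was followed across 4 groups of mouse striatum libraries. The genes were taken by name: Cnr1, Dagla, Daglb, Napepld, Mgll, Abhd6 and Faah, which make 7 of the 23119 genes in the count table. All 7 were matched to their Ensembl rows and all 7 passed the filter on low counts in every comparison. The mice were adult C57BL/6J males with no genetic change stated. Oxycodone mice infused the opioid oxycodone themselves, at 0.25 mg/kg per infusion, for 4 h a day over 14 days, and yoked mice were infused with saline on the same schedule. Dorsal striatum gave 5 oxycodone and 5 saline libraries, and ventral striatum gave 6 oxycodone and 6 saline libraries. Each library is bulk tissue RNA, depleted of ribosomal RNA. In such tissue, fewer cells of a type and less RNA per cell cannot be told apart.

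Endocannabinoids are lipids that neurons make on demand and that act backwards across the synapse. The receptor CB1, encoded by Cnr1, sits mostly on axon terminals, couples to inhibitory G proteins and lowers transmitter release. The ligand 2-arachidonoylglycerol (2-AG) is made by the diacylglycerol lipases Dagla and Daglb and broken down by the monoacylglycerol lipase Mgll and, beside it, by Abhd6. The ligand anandamide belongs to the N-acylethanolamines, which Napepld releases from membrane phospholipids and which the hydrolase Faah breaks down. In the rodent striatum CB1 is known from the terminals of medium spiny neurons, the striatal projection neurons, and of cortical axons, and its messenger RNA is known to be denser dorsally and laterally than ventrally.

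Cnr1, Abhd6 and Daglb were higher in dorsal than in ventral striatum under both treatments, as described further on, and their promoters are shown for that reason. The sequences are from RefSeq on GRCm38.p6 and run from 250 bases before to 50 bases after the annotated start that lies nearest to the start of the gene in GENCODE. They lie at chr4:33924394-33924693 for Cnr1, chr14:8002638-8002937 for Abhd6 and chr5:143464243-143464542 for Daglb, all on the plus strand. Capitals mark matches, on either strand, to the CCAAT box, the GC box GGGCGG, the TATA box TATAAA, the E-box CACGTG or the cyclic AMP response element TGACGTCA.
Cnr1: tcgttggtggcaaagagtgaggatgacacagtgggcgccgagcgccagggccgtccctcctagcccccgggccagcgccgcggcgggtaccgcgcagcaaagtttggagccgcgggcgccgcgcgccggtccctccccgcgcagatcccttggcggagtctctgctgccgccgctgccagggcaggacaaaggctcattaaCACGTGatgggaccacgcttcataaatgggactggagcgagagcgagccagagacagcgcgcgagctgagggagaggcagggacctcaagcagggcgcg
Abhd6: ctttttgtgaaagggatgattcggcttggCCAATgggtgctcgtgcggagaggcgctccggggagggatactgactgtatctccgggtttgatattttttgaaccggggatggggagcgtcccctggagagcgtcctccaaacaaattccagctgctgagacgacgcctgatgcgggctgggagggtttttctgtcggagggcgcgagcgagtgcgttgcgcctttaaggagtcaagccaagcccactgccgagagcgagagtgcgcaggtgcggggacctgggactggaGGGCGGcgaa
Daglb: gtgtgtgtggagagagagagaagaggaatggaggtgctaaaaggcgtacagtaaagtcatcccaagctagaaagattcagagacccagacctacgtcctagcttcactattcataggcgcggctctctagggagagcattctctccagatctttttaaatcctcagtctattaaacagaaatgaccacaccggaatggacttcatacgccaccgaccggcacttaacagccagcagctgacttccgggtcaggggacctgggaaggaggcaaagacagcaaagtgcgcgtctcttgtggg
The Cnr1 promoter held 1 CACGTG and 33 CG dinucleotides, more than 91.4% of the 32851 mouse promoters in the same table, whose median was 7. The Abhd6 promoter held 1 CCAAT, 1 GGGCGG and 24 CG dinucleotides, more than 80.0% of promoters. The Daglb promoter held none of the 5 motifs and 11 CG dinucleotides, more than 58.6% of promoters. Over all promoters of the table, 37.4% held the CCAAT box, 35.7% the GC box, 13.6% the TATA box, 7.15% the E-box and 1.79% the cyclic AMP response element. The 3 promoters had no motif of the 5 in common.

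Dorsal libraries held 13797075 to 17836414 counts after oxycodone and 11314079 to 21921963 after saline. Ventral libraries held 8408829 to 10007992 counts after oxycodone and 9172185 to 11000345 after saline. Levels are given as CPM, counts relative to a library total that was scaled by the trimmed mean of M values (TMM). The 7 markers of D1 medium spiny neurons averaged 5.90 to 6.10 log2 CPM in the 10 dorsal libraries, and 2 ventral libraries stood apart from the other 10. In ventral oxycodone replicate 6, the 9 dorsal striatum markers averaged 7.02 log2 CPM, within the 6.93 to 7.18 of the 10 dorsal libraries and above the 5.86 to 6.12 of the 10 other ventral libraries. Its 10 ventral striatum markers averaged 3.24, against 4.90 to 5.93 in the 10 other ventral libraries. In ventral saline replicate 6, the 8 markers of glutamatergic neurons, which the striatum largely lacks, averaged 6.74 log2 CPM, against 2.96 to 4.79 in the 10 other ventral libraries. Its D1 medium spiny neuron markers averaged 3.02, against 5.68 to 6.01 in the 10 others, and 1 of the 7 had 0 counts. Both libraries were kept as the design gives them, and changes between groups that rest on them are given with and without them. Levels per kb include both. Dorsal and ventral libraries also differ in depth, and lanes are given for the ventral libraries only, so region and sequencing batch cannot be told apart.

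**Figure D1:**
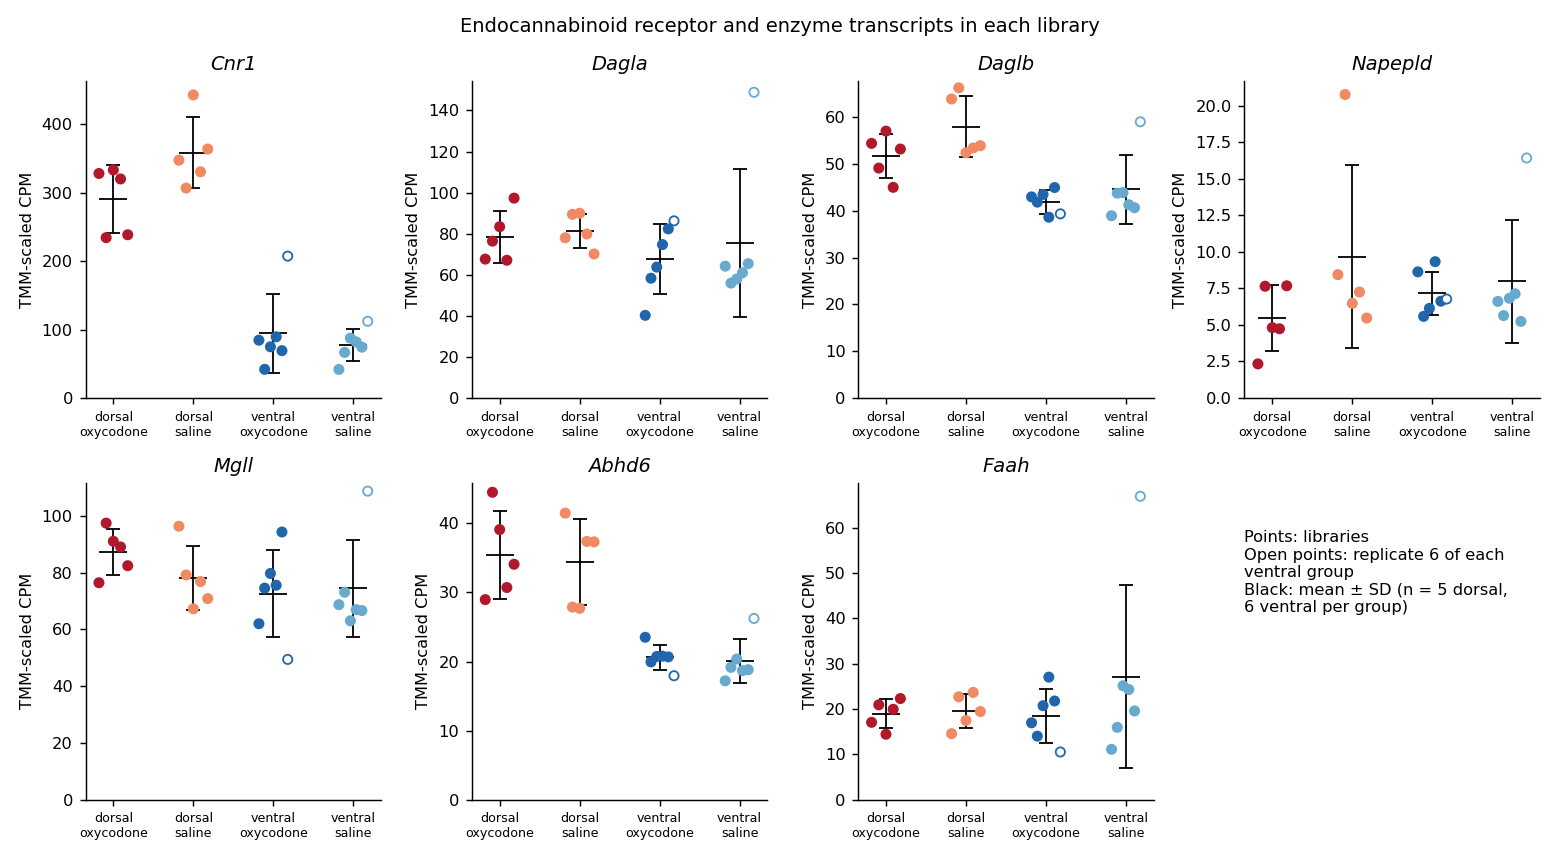
TMM-scaled CPM (vertical axes, each from 0) of the 7 genes in each library, by region and treatment. Black bars are means with SD (5 dorsal or 6 ventral libraries), and open points are replicate 6 of each ventral group. Cnr1 and Abhd6 are higher in every dorsal library than in any ventral library, and ventral saline replicate 6 is the highest ventral saline library for each gene.

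Cnr1, at GRCm38 chromosome 4, 33924593 to 33948831, plus strand, showed the largest difference between regions of the 7 genes. In dorsal oxycodone libraries it was read at 328, 234, 333, 320 and 239 CPM, and in dorsal saline libraries at 348, 307, 443, 331 and 364 CPM. In ventral oxycodone libraries the lowest, median and highest values were 41.9, 79.7 and 207 CPM, and in ventral saline libraries 41.7, 78.2 and 112 CPM. Every dorsal library lay above every ventral library, and the ventral library nearest to the dorsal ones was oxycodone replicate 6, which also carried dorsal markers at dorsal levels.

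The dorsal level of Cnr1 was 3.02-fold the ventral level in oxycodone mice, a log2 change of 1.59 (standard error, SE, 0.35, Benjamini-Hochberg adjusted p 0.00409 in the edgeR quasi-likelihood test). In saline mice it was 4.6-fold, a log2 change of 2.20 (SE 0.20, edgeR adjusted p 2.7e-06). Of all genes tested, 98.6% had a lower log2 change in oxycodone mice and 99.2% in saline mice. Leaving out any 1 library kept the log2 change between 1.46 and 2.01 in oxycodone mice and between 2.08 and 2.36 in saline mice. The highest of these values came without replicate 6 of the ventral oxycodone group and without replicate 6 of the ventral saline group.

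Abhd6, at chromosome 14, 8002902 to 8056763, plus strand, encodes a serine hydrolase of the postsynaptic membrane that breaks down part of the 2-AG. It was read at 29.0, 44.5, 39.1, 30.7 and 34.1 CPM in dorsal oxycodone libraries and at 41.5, 27.9, 27.7, 37.4 and 37.3 CPM in dorsal saline libraries. Ventral oxycodone libraries ran from 17.9 over a median of 20.7 to 23.5 CPM, and ventral saline libraries from 17.2 over 18.98 to 26.2 CPM. Dorsal and ventral values did not overlap under either treatment. The dorsal to ventral fold was 1.69 in oxycodone mice, or 0.76 in log2 (SE 0.12, edgeR adjusted p 8.31e-05), and 1.7 in saline mice, or 0.77 in log2 (SE 0.14, adjusted p 0.000503). Whichever of the 11 libraries was left out, it still passed the threshold, in either treatment. When a fold of at least 1.5 was demanded of the test, Abhd6 no longer passed, with adjusted p of 0.174 in oxycodone mice and 0.188 in saline mice, while Cnr1 did.

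Daglb, at chromosome 5, 143464584 to 143505942, plus strand, encodes the smaller of the diacylglycerol lipases. Its values were 54.4, 49.1, 57.0, 45.0 and 53.2 CPM in dorsal oxycodone libraries and 63.8, 66.2, 52.4, 53.4 and 53.9 CPM in dorsal saline libraries. Ventral oxycodone libraries ran from 38.6 over a median of 42.4 to 44.9 CPM, and ventral saline libraries from 38.9 over 42.5 to 59.0 CPM. After oxycodone the lowest dorsal library was just above the highest ventral one, and after saline a single ventral library, replicate 6, reached into the dorsal range. The log2 change was 0.28 with SE 0.09 in oxycodone mice, with an edgeR adjusted p of 0.0133, and 0.37 with SE 0.12 in saline mice, with an adjusted p of 0.0179. It too passed whichever library was left out, in either treatment, but not when a fold of at least 1.5 was demanded.

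The value of Daglb carries a limit of counting. Its exons share 2309 bases with those of Rac1, a small GTPase gene on the opposite strand, and the sources used here do not give the strand setting of the counting, although the kit marks strand. Rac1 itself was lower in dorsal striatum, by a log2 change of -0.22 in oxycodone mice (SE 0.08, edgeR adjusted p 0.0382) and -0.46 in saline mice (SE 0.10, adjusted p 0.00165). How the shared bases were counted was not tested. The other 6 genes share 0 exon bases with any gene of the table. Mgll shares 167 exon bases with Gm26588, an antisense gene on the opposite strand that has no row in the table. How those bases were counted was not tested either.

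Counted together, 3 of the 7 genes were higher in dorsal striatum in oxycodone mice and the other 4 did not pass, and in saline mice the same 3 were higher. Among all genes tested, 47.2% passed in oxycodone mice (6785 of 14375, 23.5% higher) and 45.8% in saline mice (6616 of 14433, 23.6% higher). A share of 3 in 7 (42.9%) is close to the background in either direction and above the share called higher. With only 7 genes, the count is no result about them. The median log2 change of the 7 was 0.24 in oxycodone mice and 0.26 in saline mice, against -0.01 over all genes in each.

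**Figure D2:**
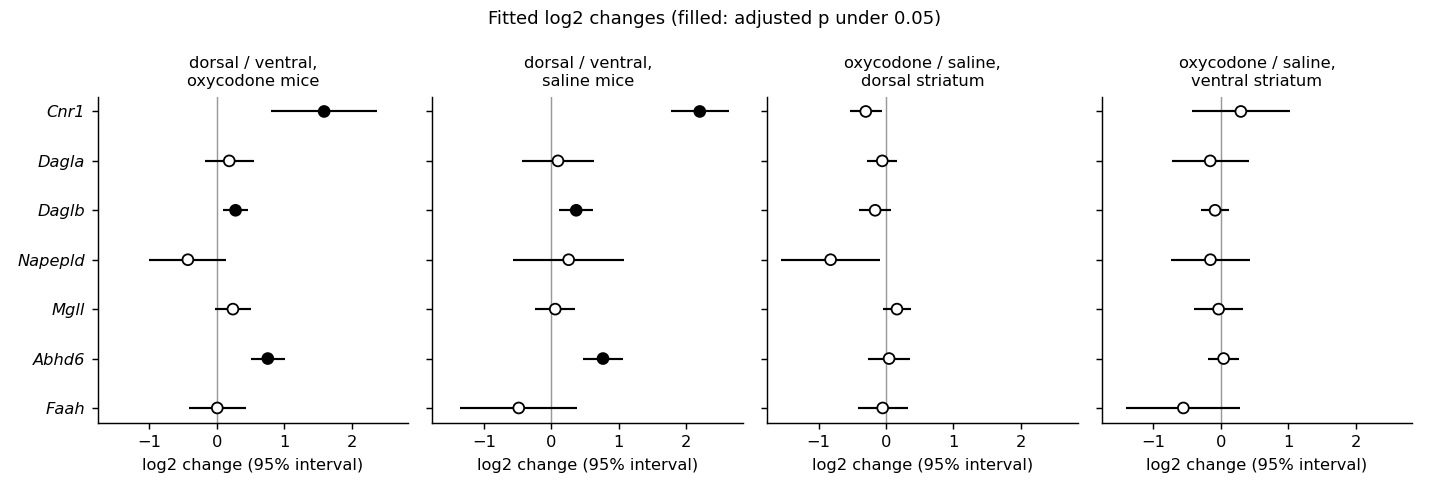
Fitted log2 changes (horizontal axes) of the 7 genes in 4 comparisons, with 95% intervals, and filled points where the edgeR adjusted p was under 0.05. Cnr1, Daglb and Abhd6 are filled in both comparisons of regions, and no point is filled for oxycodone against saline.

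Dagla, at chromosome 19, 10245265 to 10304877, minus strand, encodes the lipase that makes most of the synaptic 2-AG. Dorsal oxycodone libraries had 67.6, 76.4, 83.4, 67.1 and 97.3 CPM and dorsal saline libraries 78.0, 89.4, 89.99, 79.9 and 70.1 CPM. The lowest, median and highest values were 40.3, 69.2 and 86.3 CPM in ventral oxycodone libraries and 56.0, 62.6 and 149 CPM in ventral saline libraries. The value of 149 CPM belonged to saline replicate 6 with its high glutamatergic markers, and the 5 other ventral saline libraries all lay below every dorsal saline library. The dorsal to ventral log2 change was 0.19 with SE 0.17 in oxycodone mice (edgeR adjusted p 0.387) and 0.10 with SE 0.24 in saline mice (adjusted p 0.771). Without ventral saline replicate 6 the saline change was 0.43 (SE 0.09, edgeR adjusted p 0.000603). With Dagla 4 of the 7 genes then passed in saline mice, and 7227 of all genes did. With only 7 genes, that count is no result about them. In oxycodone mice Dagla did not pass when any 1 library was left out, with edgeR adjusted p of at least 0.173.

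Mgll, at chromosome 6, 88724412 to 88828360, plus strand, had close levels in all groups. It was read at 76.4, 97.4, 91.0, 89.0 and 82.4 CPM in dorsal oxycodone libraries and at 96.3, 79.2, 67.3, 76.8 and 70.8 CPM in dorsal saline libraries. Ventral oxycodone libraries ran from 49.4 over a median of 75.0 to 94.3 CPM and ventral saline libraries from 63.0 over 67.8 to 109 CPM. The ranges of all 4 groups overlapped. Its dorsal to ventral log2 change was 0.24 in oxycodone mice (95% interval -0.03 to 0.51, edgeR adjusted p 0.136) and 0.06 in saline mice (-0.24 to 0.36, adjusted p 0.768). Without ventral oxycodone replicate 5 the oxycodone change was 0.36 with an adjusted p of 0.0255.

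In the anandamide branch, Napepld was read at the lowest CPM of the 7 genes. Napepld, at chromosome 5, 21662901 to 21701396, minus strand, had 2.33, 7.64, 4.81, 4.74 and 7.68 CPM in dorsal oxycodone libraries and 8.44, 20.8, 6.47, 7.25 and 5.47 CPM in dorsal saline libraries. Ventral oxycodone libraries ran from 5.58 over a median of 6.69 to 9.32 CPM and ventral saline libraries from 5.24 over 6.71 to 16.4 CPM. Its dorsal to ventral log2 change was -0.43 in oxycodone mice (SE 0.27, edgeR adjusted p 0.209) and 0.26 in saline mice (SE 0.38, adjusted p 0.614), and the saline value was -0.23 without dorsal saline replicate 2, the library at 20.8 CPM.

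Faah, at chromosome 4, 115967145 to 116017926, minus strand, had 17.1, 20.9, 14.4, 19.9 and 22.3 CPM in dorsal oxycodone libraries and 14.6, 22.7, 17.5, 23.7 and 19.5 CPM in dorsal saline libraries. Ventral oxycodone libraries ran from 10.5 over a median of 18.8 to 27.0 CPM and ventral saline libraries from 11.1 over 21.9 to 66.9 CPM. The groups overlapped throughout, and saline replicate 6 alone lay far above the rest. The dorsal to ventral log2 change was 0.01 in oxycodone mice (SE 0.20, edgeR adjusted p 0.976) and -0.48 in saline mice (SE 0.39, adjusted p 0.343), and the saline value turned to 0.04 without ventral saline replicate 6.

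Cnr1 and Faah are set against tissue markers, and their highest ventral values lay in the libraries that stood apart on those markers. This is not particular to them. Dagla, Daglb, Napepld, Mgll and Abhd6 also had their highest ventral values in saline replicate 6, and they were not set against markers. In the ventral libraries without replicate 6 of either group, Cnr1 ran from 41.7 to 89.5 CPM and the dorsal striatum markers, 9 genes that do not include Cnr1, summed to 739 to 1011 CPM. Among these 10 libraries Cnr1 was at 89.5 CPM with a marker sum of 743 CPM in oxycodone replicate 4. It was at 41.9 CPM with a sum of 848 CPM in oxycodone replicate 2. Whether Cnr1 follows the markers over this narrow range was not tested. In ventral oxycodone replicate 6 Cnr1 was at 207 CPM and the markers at 2243 CPM, and in ventral saline replicate 6 they were at 112 and 1186 CPM. That saline library had D1 medium spiny neuron markers at 3.02 log2 CPM, so its sum is not read as a measure of dorsal striatum. In the 10 dorsal libraries Cnr1 ran from 234 to 443 CPM and the markers from 1971 to 2501 CPM. Faah was at 66.9 CPM where the 8 glutamatergic markers summed to 1765 CPM, in ventral saline replicate 6. In the 10 other ventral libraries it ran from 11.1 to 27.0 CPM with marker sums of 121 to 549 CPM. The glutamatergic sum was lower in dorsal libraries, at 65.9 to 207 CPM after oxycodone and 80.6 to 205 CPM after saline, and oligodendrocyte markers were higher there, at 2890 to 4300 and 3030 to 3972 CPM, against 1265 to 3274 and 444 to 1828 CPM in ventral oxycodone and saline libraries. The part of these tissue differences in the changes of the 7 genes was not tested.

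**Figure D3:**
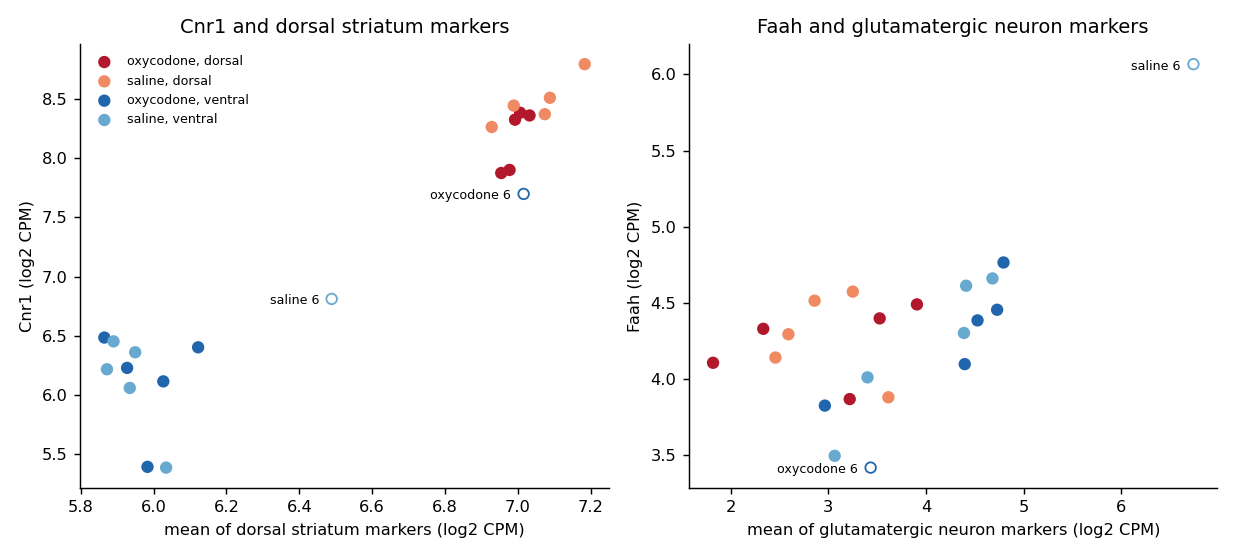
Log2 CPM of Cnr1 against the mean log2 CPM of 9 dorsal striatum markers (left) and of Faah against the mean of 8 glutamatergic neuron markers (right), 1 point per library, with replicate 6 of each ventral group open. Ventral oxycodone replicate 6 lies beside the dorsal libraries on the left at a marker mean of 7.02, and ventral saline replicate 6 lies alone at the upper right for Faah at a marker mean of 6.74.

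Per kilobase of exon, which allows the genes to be set against each other, Cnr1 led in dorsal striatum with 45.1 ± 7.75 CPM per kb after oxycodone and 55.6 ± 8.04 after saline (SD, n = 5 each). In both dorsal groups the order of levels went on with Mgll, Abhd6, Dagla, Daglb, Faah and Napepld. Mgll followed at 17.2 ± 1.59 and 15.4 ± 2.21 CPM per kb in dorsal oxycodone and saline libraries, Abhd6 at 15.0 ± 2.69 and 14.5 ± 2.63, and Dagla at 13.6 ± 2.19 and 14.2 ± 1.45. The ranges of Mgll, Abhd6 and Dagla overlapped from one to the next, whereas Cnr1 lay wholly above Mgll, Dagla wholly above Daglb and Daglb wholly above Faah in both dorsal groups. Within single libraries Mgll lay above Abhd6 in 5 of 5 after oxycodone and 3 of 5 after saline. Abhd6 lay above Dagla in 4 of 5 after oxycodone and 3 of 5 after saline. Daglb stood at 5.41 ± 0.493 and 6.06 ± 0.685 CPM per kb, Faah at 2.42 ± 0.404 and 2.50 ± 0.477, and Napepld at 1.38 ± 0.571 and 2.45 ± 1.59.

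In ventral striatum the ranges of the first 3 levels per kb overlapped. Within single libraries Mgll lay above Dagla in 5 of 6 in each ventral group. Cnr1 lay above Mgll in 2 of 6 after oxycodone, and Dagla above Cnr1 in 2 of 6 after saline. The levels after oxycodone were Cnr1 at 14.7 ± 8.95, Mgll at 14.3 ± 3.03 and Dagla at 11.8 ± 2.98 CPM per kb (SD, n = 6). After saline they were Mgll at 14.7 ± 3.36, Dagla at 13.1 ± 6.28 and Cnr1 at 12.0 ± 3.63 (SD, n = 6). Both sixth libraries are included. Replicate 6 held the highest Cnr1 value after oxycodone, 32.2 CPM per kb, and the highest Dagla value after saline, 25.9. Means per kb without these libraries were not taken, so the order of these 3 genes can rest on them. Abhd6 came next at 8.71 ± 0.756 and 8.49 ± 1.34 CPM per kb and lay wholly above Daglb, at 4.37 ± 0.257 and 4.66 ± 0.764. Faah, at 2.36 ± 0.754 and 3.47 ± 2.57, and Napepld, at 1.81 ± 0.372 and 2.02 ± 1.06, were again the lowest. With the longest transcript in place of all exons as the length, the order of the 7 genes was the same in both dorsal groups, but not in the ventral groups. Mgll then led in ventral oxycodone libraries, and Daglb, at 9.14 CPM per kb, stood above Abhd6, at 9.02, in ventral saline libraries. By that length Abhd6 and Daglb overlapped in both ventral groups, and Dagla and Daglb overlapped in dorsal saline libraries. Daglb stood at 10.6 and 11.9 CPM per kb in dorsal oxycodone and saline libraries, nearer to the genes above it.

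**Figure D4:**
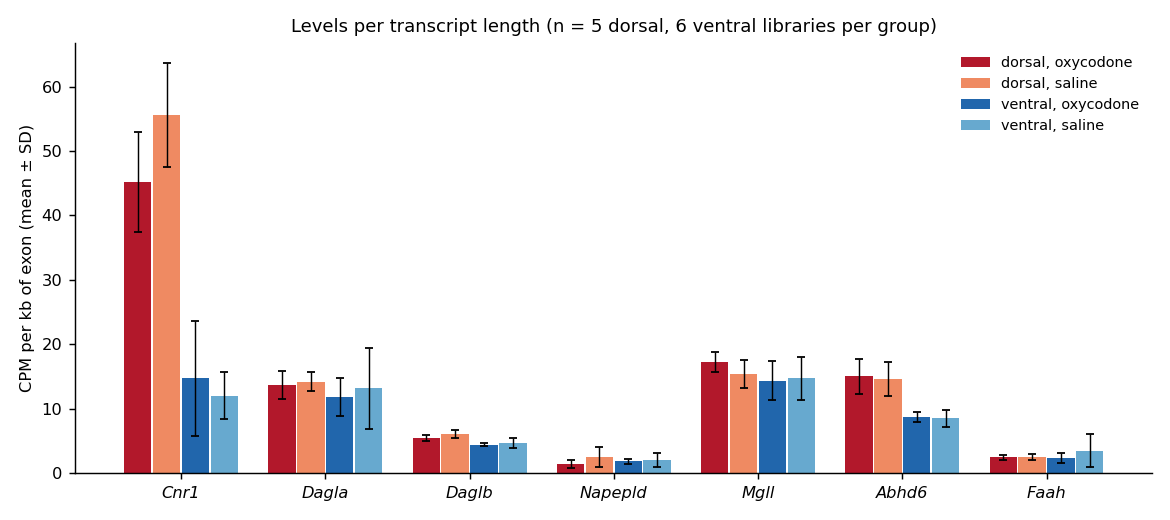
Mean CPM per kb of exon (vertical axis, from 0) of each gene in the 4 groups, with SD over 5 dorsal or 6 ventral libraries. Cnr1 stands at 45.1 and 55.6 in the dorsal groups, above all other genes there. In the ventral groups it stands at 14.7 and 12.0, where its range overlaps those of Mgll and Dagla. Replicate 6 of each ventral group is included.

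Oxycodone was then compared with saline within each region, the question the design names. In dorsal striatum 0 of the 7 genes passed, against 0.206% of all genes tested (30 of 14595, with 0.199% higher and 0.00685% lower). DESeq2 and limma-voom also called 0 of the 7, and over all genes DESeq2 called 86. Cnr1 averaged 291 ± 49.9 CPM after oxycodone and 358 ± 51.8 after saline (SD, n = 5 each). Only 2 oxycodone libraries, at 234 and 239 CPM, lay below every saline library, and the other 3 lay within the saline range. The log2 change was -0.30 with SE 0.11, an unadjusted p of 0.0148 and an edgeR adjusted p of 0.637. Among libraries whose titles carry the suffix P, a mark the labels do not explain, it was -0.38, and among those without the suffix -0.26. With any 1 library left out it ran from -0.35 to -0.21.

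Napepld averaged 5.44 ± 2.26 CPM in dorsal oxycodone libraries and 9.68 ± 6.29 in dorsal saline libraries (SD, n = 5 each), with 3 oxycodone libraries below every saline library. Its log2 change was -0.82 with SE 0.36, an unadjusted p of 0.0295 and an edgeR adjusted p of 0.781. Without dorsal saline replicate 2 it was -0.34. It was -0.26 among libraries with the suffix P and -1.20 among those without it, where that replicate belongs. The counts behind Napepld were small, with 42 to 133 reads in dorsal oxycodone libraries and 90 to 236 in dorsal saline libraries. In dorsal striatum 2 of the 7 genes, Cnr1 and Napepld, had an unadjusted edgeR p under 0.05. So did 823 of all genes tested (5.64%). With only 7 genes, this count is no result about them.

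For the other 5 genes the dorsal oxycodone effect lay between -0.16 for Daglb and 0.16 for Mgll on the log2 scale, each with an edgeR adjusted p of at least 0.983. The 95% intervals were -0.39 to 0.07 for Daglb, -0.05 to 0.38 for Mgll, -0.28 to 0.17 for Dagla, -0.26 to 0.35 for Abhd6 and -0.42 to 0.32 for Faah. Each interval includes 0, and a p above the threshold does not show equal levels.

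In ventral striatum 0 of the 7 genes passed in edgeR, as did 0 of all 14116 genes tested (0%). Of all genes, 1289 (9.13%) had an unadjusted edgeR p under 0.05, and 0 of the 7 did. At that share 0 of 7 is no result about the 7 genes. DESeq2 called 38 genes and limma-voom 61, none of them among the 7. Faah averaged 18.5 ± 5.91 CPM after oxycodone and 27.2 ± 20.2 after saline (SD, n = 6 each), a log2 change of -0.55 (SE 0.39, edgeR adjusted p 0.676). Without saline replicate 6 the change of Faah was -0.04, and without replicate 6 of both groups it was 0.07. It was 0.04 within lane 1, the first sequencing lane, and -1.41 within lane 2, which holds both of those libraries.

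Cnr1 averaged 94.6 ± 57.7 CPM in ventral oxycodone libraries and 77.4 ± 23.4 in ventral saline libraries (SD, n = 6 each), and a single oxycodone library, replicate 6, lay above the saline range. Its log2 change was 0.30 (SE 0.34, edgeR adjusted p 0.799), and -0.10 without oxycodone replicate 6. It was 0.07 within lane 1 and 0.58 within lane 2. The other 5 changes ran from -0.16 for Dagla to 0.04 for Abhd6, with adjusted p of at least 0.807. With replicate 6 of both groups left out, the changes of the 7 genes lay between 0.03 and 0.21, and again 0 passed.

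Whether the oxycodone effect differed between regions was asked by a contrast over all 22 libraries. Of 14938 genes tested, 0 passed in edgeR (0%), as with DESeq2 and limma-voom. An unadjusted edgeR p under 0.05 was found for 674 genes (4.51%), none of them among the 7, which at that share is no result. For Cnr1 the effect in dorsal minus that in ventral striatum was -0.59 on the log2 scale (SE 0.41, unadjusted p 0.171, edgeR adjusted p 0.981), and -0.19 without ventral oxycodone replicate 6. For Napepld it was -0.66 (SE 0.49), for Faah 0.51 (SE 0.47) and for Mgll 0.20 (SE 0.20). For Dagla, Daglb and Abhd6 it lay between -0.07 and 0.11.

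Beyond the 7 genes, a list of 41 further genes of the pathway was followed: other receptors, partners and G proteins of CB1, the route that feeds 2-AG synthesis, other enzymes and fatty acid carriers. In the comparisons of oxycodone with saline 0 of the 34 tested in ventral striatum and 0 of the 35 tested in dorsal striatum passed, with 3 and 2 at an unadjusted p under 0.05. Of all genes tested, 9.13% in ventral and 5.64% in dorsal striatum had an unadjusted p under 0.05, so these counts are near the background. The lowest p was that of Pla2g4e, the calcium-dependent acyltransferase that makes the phospholipid precursor of anandamide. It ran from 2.90 over a median of 4.73 to 5.55 CPM in ventral oxycodone libraries and from 6.26 over 7.52 to 13.5 CPM in ventral saline libraries. The ranges did not overlap. The log2 change was -0.88 with SE 0.21, an unadjusted p of 0.000987 and an edgeR adjusted p of 0.328, and DESeq2 gave an adjusted p of 0.0415. It was -0.59 in lane 1, -1.40 in lane 2 and -0.59 without replicate 6 of both groups.

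Between regions, 10 of the 35 tested pathway genes were higher and 10 lower in dorsal striatum in oxycodone mice, and 9 were higher and 11 lower in saline mice. Over all genes tested the shares were 23.5% higher and 23.7% lower in oxycodone mice, and 23.6% higher and 22.3% lower in saline mice. Of the pathway genes called, 9 were higher and 9 lower under both treatments. The share of all genes called under both treatments was not computed, so these counts are no result about the pathway. The genes of 2 proteins that bind CB1 were both lower in dorsal striatum, where the receptor was higher. Sgip1, which slows the internalisation of CB1, averaged 127 ± 12.7 and 257 ± 24.4 CPM in dorsal and ventral oxycodone libraries, and 129 ± 17.1 and 264 ± 13.6 CPM in dorsal and ventral saline libraries. Its log2 change was -1.04 in both treatments, with edgeR adjusted p of 1.4e-07 in oxycodone mice and 4.2e-07 in saline mice. Cnrip1, the cannabinoid receptor interacting protein, changed by -0.76 in oxycodone mice and by -1.09 in saline mice.

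The inhibitory G protein subunits differed in both directions. Gnai1 changed by -0.83 and Gnao1 by -0.63 on the log2 scale in oxycodone mice, and by -1.05 and -0.57 in saline mice, whereas Gnai2 changed by 0.38 and 0.32. All 3 passed in both treatments. On the route upstream of 2-AG, where Gq proteins act through phospholipase C beta, Gna11 was higher in dorsal striatum by 0.70 in oxycodone mice and 0.52 in saline mice, Plcb1 by 0.39 and 0.65, and the postsynaptic scaffold Homer1 by 0.38 and 0.79. Gnaq was lower, with changes of -0.66 and -0.90, and so was Plcb4, with -0.52 and -0.87. Homer2, unlike Homer1, was lower in oxycodone mice, with -1.01, and did not pass in saline mice. Gnaq and Gna11, which encode closely related Gq class subunits, thus differed between regions in opposite directions.

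Other enzymes of the pathway differed in both directions as well. Abhd12, a hydrolase that also takes 2-AG, was higher in dorsal striatum by 0.46 in oxycodone mice and 0.54 in saline mice. Gde1, which releases N-acylethanolamines on a route that bypasses Napepld, was higher by 0.77 and 0.95, and Abhd4, which acts before Gde1 on that route, by 0.54 and 0.43. Pla2g4e was lower, with changes of -1.06 and -1.39, and the brain fatty acid binding protein gene Fabp7 was lower with -0.97 and -0.93. Each passed in both treatments with an edgeR adjusted p of at most 0.0146. When a fold of at least 1.5 was demanded, Sgip1 still passed in both treatments, and Cnrip1, Gnai1, Gnaq and Gde1 passed in saline mice but not in oxycodone mice. The other pathway genes named here did not pass in the treatments where this was run, with edgeR adjusted p of 0.0666 for Pla2g4e in saline mice and up to 1.0 for Gnai2 in both. Plcb4 also missed the threshold in oxycodone mice with all 22 libraries in 1 fit (edgeR adjusted p 0.0743). Cnr2, the other cannabinoid receptor, reached at most 1.29 CPM in any library and was too low to test, as were Trpv1 and Gpr119.

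**Figure D5:**
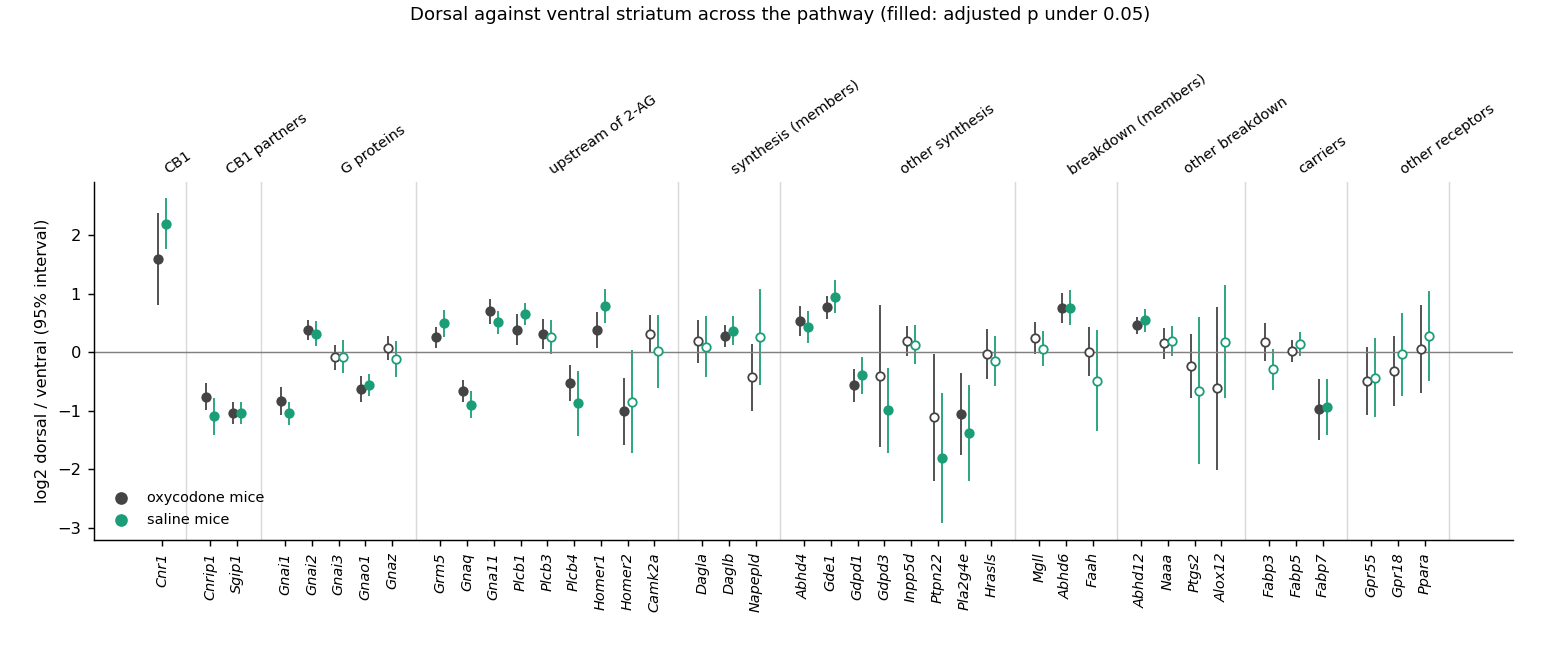
Log2 change of dorsal against ventral striatum (vertical axis, with 95% intervals) for the 7 genes and the tested pathway genes other than 1 that is not reported here, in oxycodone mice (dark) and saline mice (green), filled where the edgeR adjusted p was under 0.05. Cnr1 lies highest at 1.59 and 2.20, while Cnrip1 and Sgip1 beside it lie between -0.76 and -1.09.

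The genes whose levels ran most like those of Cnr1 over the 22 libraries were Acvr1c, Kcnk1 and Ccnd2. Likeness was the root mean square difference of log2 CPM after each gene was centred on its own mean, which came to 0.31, 0.34 and 0.35, against a median of 1.16 over 14356 genes. For Dagla the nearest were Camk2a, at 0.13, Scn8a, at 0.16, and Cyfip2, at 0.18, against a median of 0.51. For Faah they were Pgm2l1, at 0.30, Rap1gap2 and Sv2b, both at 0.31, against 0.64. For Abhd6 they were Gle1, at 0.14, Atp6v1f and Twf2, both at 0.15, against 0.56. All distances span both regions and all libraries, including the 2 that stood apart.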

How the data were processed

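RNA was sequenced from dorsal and ventral striatum of oxycodone and saline mice, 22 libraries in all. Per the labels' protocols, total RNA was purified on columns and libraries were made with a stranded kit that removes ribosomal RNA. The authors deposited raw read counts for 23119 Ensembl genes, all whole numbers. Per the submitters' processing notes, CASAVA 1.8.2, STAR 2.3 and featureCounts were used with builds mm10, GRCm38 and mm9. Which step used which build, and the strand setting, are not given in the sources used here. Symbols and positions came from GENCODE M21 on GRCm38 for 22282 genes (96.4%), and older symbols of the pathway list from RefSeq. Unrelated to counting, promoters came from RefSeq.

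Groups follow the labels. Counts were scaled by TMM, filtered by filterByExpr and tested by edgeR 4.0.16 (R 4.3.3), quasi-likelihood with robust estimation, two-sided, with Benjamini-Hochberg adjustment over all genes tested and a threshold of 0.05. Comparisons set oxycodone against saline in either region, dorsal against ventral striatum in either treatment, and the oxycodone effects of the regions by a contrast over all 22 libraries. Log2 CPM used a prior count of 2, and levels per kb the union of a gene's exons. The scripts were tested on simulated counts with known changes. The 7 genes, the pathway list and the marker lists were chosen with earlier results of these data known. Pathway genes were named from the up to 4 per sub-list and comparison with the lowest p among those past the threshold, else the 1 with the lowest p. Not all of these are named. The values of 1 pathway gene are not reported here, though the counts over the list include it. Genes like a member are the 3 nearest with a mean of at least 1 CPM.

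Alternatives were other scaling factors and filters, DESeq2 1.42.0, limma-voom (limma 3.58.1), no robust estimation, all libraries in 1 fit, lane and title suffix, summed libraries that share a title number, thinned dorsal counts, a fold of at least 1.5, title number as a block, leaving out replicate 6 of both ventral groups, and leaving out each library in turn. A fit without the block on the same libraries was added after the data had been seen. The labels do not say that each library is a separate animal, and in dorsal striatum 2 title numbers occur on a pair of libraries of the same treatment, so p-values measure the spread between these samples. Chi-square per degree of freedom between libraries of a group, over genes with at least 100 summed counts, was 2.88 at the lowest of 50 pairs, so none was merged with another.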

Additional observations from a re-analysis of the deposited data

Results flagged for a closer look

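In 8 of 28 combinations of gene and group, 1 library stood far from the others, measured as the gap to its nearest neighbour divided by the range of the group. Chance flags about 1 in 20 such combinations, and the 7 genes share the same libraries. In ventral oxycodone replicate 6 Cnr1 was at 207 CPM, against 41.9 to 89.5 CPM in the 5 other libraries, with a gap of 0.713 of the range. In ventral saline replicate 6 the gap was 0.898 for Dagla, 0.753 for Daglb, 0.831 for Napepld, 0.780 for Mgll, 0.650 for Abhd6 and 0.749 for Faah, each time with that library highest. Its Dagla value was 149 CPM against 56.0 to 65.4 in the 5 other libraries, and its Napepld value 16.4 CPM against 5.24 to 7.13. In dorsal saline replicate 2 Napepld was at 20.8 CPM, against 5.47 to 8.44 CPM in the 4 other libraries, with a gap of 0.806. No marker list was compared with that library's Napepld value.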

How the results depend on the processing

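Cnr1, Abhd6 and Daglb were higher in dorsal striatum under every alternative run, and all passed the threshold except Abhd6 and Daglb where a fold of at least 1.5 was demanded, which left 1 of the 7 genes called in each treatment and 1412 genes of all in oxycodone mice and 1810 in saline mice. Oxycodone against saline called 0 of the 7 under all alternatives in both regions. Over all genes it called 38 in ventral striatum with DESeq2 and 61 with limma-voom. In dorsal striatum it called 86 with DESeq2, 58 without robust estimation, 5 with all 22 libraries in 1 fit, 1 among libraries with the suffix P and 17 among those without it, and from 1 to 63 with 1 library left out: 1 without saline replicate 5 and 63 without oxycodone replicate 3.

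Several changes that did not pass the threshold turned sign under an alternative. In ventral striatum, oxycodone against saline became -0.0022 for Cnr1, 0.12 for Dagla, 0.018 for Daglb, 0.083 for Napepld and 0.19 for Mgll with limma-voom. Without both sixth libraries it became 0.071 for Dagla, 0.026 for Daglb, 0.21 for Napepld, 0.19 for Mgll and 0.068 for Faah. Within lane 1 it was 0.18 for Napepld, 0.10 for Mgll and 0.045 for Faah, and within lane 2 it was -0.21 for Abhd6. With 1 library left out the ranges were -0.10 to 0.45 for Cnr1, -0.24 to 0.16 for Dagla, -0.12 to 0.015 for Daglb, -0.25 to 0.20 for Napepld and -0.12 to 0.11 for Mgll. In dorsal striatum Abhd6 became -0.012 with limma-voom and -0.074 with summed libraries, and Faah 0.012 without the suffix libraries, with ranges of -0.050 to 0.12 and -0.13 to 0.033 for 1 library left out. For the oxycodone effect in dorsal minus ventral striatum, limma-voom gave -0.13 for Dagla, -0.12 for Abhd6 and -0.046 for Faah. Without both sixth libraries it was -0.14 for Dagla, -0.045 for Mgll, -0.14 for Abhd6 and -0.13 for Faah, and with 1 library left out -0.21 to 0.19 for Dagla and -0.089 to 0.071 for Abhd6.

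For dorsal against ventral striatum in saline mice, Faah became 0.041 without both sixth libraries, and with 1 library left out Faah ran from -0.63 to 0.041, Napepld from -0.23 to 0.62 and Mgll from -0.027 to 0.22. In oxycodone mice Faah became -0.10 with limma-voom and -0.093 without the sixth libraries, and ran from -0.093 to 0.15 with 1 library left out. The causes were not tested beyond the libraries named. Title numbers are shared between regions, and same-numbered libraries deviated together with r above 0.1 in 1 of 5 oxycodone pairs and 0 of 5 saline pairs, so the numbers are not shown to pair the samples. With the title number as a replicate block, 6657 genes passed in oxycodone mice and 5861 in saline mice, Dagla passed in both (log2 change 0.39 in each), Abhd4 no longer passed in saline mice (0.31, edgeR adjusted p 0.0897), and Faah was -0.0037 in oxycodone mice and 0.16 in saline mice. On the same libraries without the block, Dagla passed in saline mice (0.41, edgeR adjusted p 0.00278) but not in oxycodone mice (0.38, adjusted p 0.0753), so in saline mice the choice of libraries alone gave the call. Faah was -0.081 and 0.12 there. The block changed no other call of the 7 genes. Oxycodone and saline libraries share no title numbers within a region. Genes under the filter on low counts, such as Cnr2, could not be compared at these depths.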
